A study of Mus musculus with 40 samples.

Results

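Helper T cell cytokines are the secreted proteins by which CD4+ T cells instruct other immune cells, and 10 of their genes were followed here through every RNA-seq library of the study: Il2, Il21, Ifng, Il4, Tnf, Lta, Il3, Csf2, Il17a and Il17f. They were taken by their gene symbols, without regard to their values, and all 10 were among the 21950 genes of the deposited expression table. Of these, 6 reached the level required for a test, Il2 failed the filter on low values although it was detected in all libraries, and Il3, Il17a and Il17f were under 3 reads in every library.

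Naive CD4+ T cells hold these genes silent or low, and a stimulus through the T cell receptor brings them up through calcium entry, the phosphatase calcineurin and the transcription factor NFAT, together with AP-1 and NF-κB. Which of them a cell then makes depends on its lineage: interferon-γ (Ifng) marks Th1 cells, IL-4 (Il4) Th2 cells, IL-17A and IL-17F (Il17a, Il17f) Th17 cells, and IL-21 (Il21) follicular helper and Th17 cells. Regulatory T cells (Tregs), which depend on the transcription factor Foxp3, restrain such cells, and Foxp3 is known to hold down Il2 and other cytokine genes.

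The libraries came from spleen T cells of C57BL/6 mice that carry a Foxp3 reporter, in 8 groups of 3 libraries. Conventional CD4+ T cells (Tconvs) and thymus-derived Tregs (tTregs, sorted as CD4+ Foxp3-GFP+) from Foxp3-IRES-GFP mice of 2 to 4 months were taken resting or after activation. Induced Tregs (iTregs) were made from naive CD4+ CD62Lhi CD44lo cells of 6-week-old mice, negative for a reporter that the methods give as GFP or RFP. These cells were held with plate-bound anti-CD3, anti-CD28, 2 ng/ml human TGF-β and human IL-2 for 4 days, sorted on the reporter and rested for 1 day in IL-2. The iTregs were then left resting or restimulated through CD3 and CD28, alone, with CM-4620 (a blocker of the ORAI calcium channels, labelled ORAIinh) or with cyclosporine A (CsA, an inhibitor of calcineurin). The CsA libraries are labelled Treg as cell type and iTreg in their titles, and were grouped by title. The sources used here give neither the hours of activation or restimulation of these libraries nor the inhibitor doses. All iTreg groups thus shared a first stimulation through CD3 with TGF-β and IL-2. No source states that the 3 libraries of a group came from separate mice or cultures, so the p-values below measure the spread between libraries, which may be technical.

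Values are normalized counts, that is, reads on a gene divided by one size factor per library. The libraries held 5256800 to 15685234 reads on genes, fewest in tTregs, and 3 reads, taken as the floor, were worth 2.12 to 5.45 normalized counts. Foxp3 itself averaged 10.4 ± 0.835 (SD, n = 3) in resting Tconvs, 7537 ± 285 in resting tTregs, 1280 ± 88.4 in resting iTregs and 710 ± 18.7 in restimulated iTregs, so the levels followed the labels. Markers of natural killer cells, which also make interferon-γ, summed to 494–511 in resting Tconvs, 44.0–60.4 in activated Tconvs, 0 in all tTreg libraries and 51.6–233 over the iTreg libraries, and their part in the results was not tested. Of the 4 natural killer genes, Ncr1 and Klrb1c were at 0 in iTregs, where Klrd1 and Klrk1 made up the sum. Markers of mast cells and basophils, another source of IL-4, summed to at most 3.45 in any library.

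The start regions of Il21, Ifng, Il4, Tnf and Il17a are shown first, since NFAT, on whose route both inhibitors act, binds cytokine promoters. Each line gives the 250 bases before the RefSeq start site on the gene's own strand (GRCm38.p6), for Il21 at chr3:37232637-37232886, minus strand, for Ifng at chr10:118440796-118441045, plus strand, for Il4 at chr11:53618666-53618915, minus strand, for Tnf at chr17:35202008-35202257, minus strand, and for Il17a, which gave no read, at chr1:20730655-20730904, plus strand. Capitals mark the NFAT core GGAAA, written TTTCC where it lies on the other strand, and the AP-1 motif TGANTCA.
Il21: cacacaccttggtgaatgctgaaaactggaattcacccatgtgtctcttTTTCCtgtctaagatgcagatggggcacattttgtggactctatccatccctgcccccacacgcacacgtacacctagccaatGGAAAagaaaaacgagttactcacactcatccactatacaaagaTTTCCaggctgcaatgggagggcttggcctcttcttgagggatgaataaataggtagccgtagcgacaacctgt
Ifng: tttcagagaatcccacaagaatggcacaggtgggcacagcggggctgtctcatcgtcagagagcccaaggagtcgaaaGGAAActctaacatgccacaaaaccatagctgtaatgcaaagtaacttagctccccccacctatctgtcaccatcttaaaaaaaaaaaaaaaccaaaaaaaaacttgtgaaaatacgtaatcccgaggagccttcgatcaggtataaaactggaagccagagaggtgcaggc
Il4: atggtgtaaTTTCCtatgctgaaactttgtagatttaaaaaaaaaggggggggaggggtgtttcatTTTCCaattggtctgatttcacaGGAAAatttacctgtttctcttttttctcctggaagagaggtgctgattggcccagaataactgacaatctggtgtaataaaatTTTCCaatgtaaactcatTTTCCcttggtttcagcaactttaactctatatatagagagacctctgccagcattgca
Tnf: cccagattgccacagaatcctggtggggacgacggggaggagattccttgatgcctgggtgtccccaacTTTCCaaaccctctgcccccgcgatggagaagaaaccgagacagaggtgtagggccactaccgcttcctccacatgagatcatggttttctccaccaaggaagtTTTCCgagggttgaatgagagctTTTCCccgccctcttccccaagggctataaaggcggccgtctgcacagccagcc
Il17a: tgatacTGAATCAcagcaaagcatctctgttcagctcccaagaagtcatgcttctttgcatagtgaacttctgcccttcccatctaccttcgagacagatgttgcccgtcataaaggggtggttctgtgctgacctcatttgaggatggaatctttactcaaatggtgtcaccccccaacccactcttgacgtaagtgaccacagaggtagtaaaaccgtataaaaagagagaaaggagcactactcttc

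In windows of 250 bases before to 50 bases after the start, GGAAA stood on either strand in 10 of the 11 member windows, Il4 having 2 start sites, against 61.3% of all 32851 RefSeq windows. The upstream start of Il4 held 5 matches, Il21, Tnf, Lta and Csf2 held 3 each, Il2 and Il17f held 2, Ifng and Il3 held 1, and Il17a held none. TGANTCA was found in 1 member window, that of Il17a, against 7.81% of all windows. The ROR motif AGGTCA was in 4 member windows against 16.3% of all, the T-box motif AGGTGTGA in 0 against 1.28%, and the TATA box TATAAA in 6 against 13.6%. So short a string recurs often, and a match is a string in the sequence, not a bound site.

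**Figure D1:**
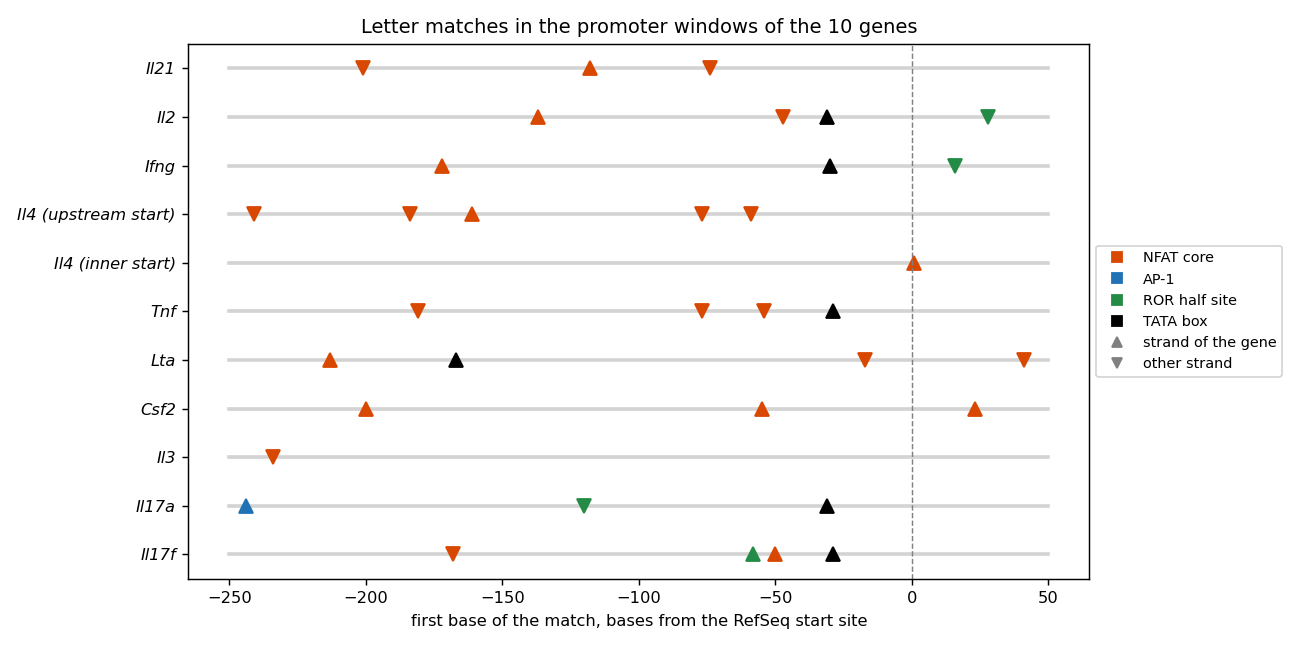
Matches of 5 motifs around the RefSeq start sites of the 10 genes; the x axis is the distance from the start site in bases, each row is a start site, and upward triangles are matches on the gene's strand and downward triangles on the other strand. The NFAT core stands in every row but those of Il17a and, within the 250 bases before the start, the inner start of Il4.

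The ligands of the tumour necrosis factor family are described first; per length of exon they were the most abundant members in activated Tconvs and restimulated iTregs. Lta, which encodes lymphotoxin-α, lies at chr17:35203165-35205351 (GRCm38, minus strand) and ends 1157 bases from Tnf. It was lowest in resting Tconvs, with 99.8, 110 and 114 normalized counts in the 3 libraries, and reached 1518, 1786 and 1631 in activated Tconvs. The tTregs held 680, 719 and 663 at rest and 603, 720 and 618 after activation. Resting iTregs held 3248, 3454 and 3226, and restimulated iTregs 3824, 3936 and 3996. Thus every iTreg library was above every Tconv and tTreg library, activated Tconvs came next, and the resting and activated tTreg libraries overlapped. With CM-4620 the values were 3818, 3494 and 3832 and with CsA 3794, 3642 and 3664, between the resting and restimulated iTregs in their means and overlapping each other. In sorted bulk populations, fewer cells that express a gene and less RNA per cell cannot be told apart, which holds for every level given here.

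Tnf, at chr17:35199381-35202007 on the same strand, encodes the inflammatory cytokine TNF. It separated one group from the other 7. Resting Tconvs held 37.0, 25.3 and 43.0 normalized counts, whereas the other libraries held 410 to 576. Activated Tconvs (576, 499 and 521) overlapped with resting tTregs (489, 545 and 493), and those with resting iTregs (506, 463 and 486), while activated tTregs held 474, 468 and 503. The 3 restimulated iTreg libraries, at 456, 410 and 420, lay below those of activated tTregs without overlap. Those with CM-4620, at 464, 481 and 501, and with CsA, at 531, 544 and 557, lay above the restimulated ones.

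Il21, at chr3:37222759-37232636 on the minus strand, encodes a cytokine that acts on B cells and sustains Th17 and follicular helper cells. No read fell on it in any of the 6 tTreg libraries. Resting Tconvs held 4, 6 and 5 reads (4.11, 5.63 and 4.39 normalized counts), and activated Tconvs 29.6, 31.9 and 31.1 normalized counts. Resting iTregs held 219, 255 and 250, restimulated iTregs 936, 893 and 1084, those with CM-4620 742, 827 and 828, and those with CsA 687, 808 and 771. Every step of this order was without overlap between libraries, from tTregs through resting Tconvs, activated Tconvs and resting iTregs to restimulated iTregs, and only the CM-4620 and CsA groups overlapped each other. Of the exon bases of Il21, 8.92% are shared with Gm12534 on the other strand.

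Ifng and Il4, the signature cytokines of Th1 and Th2 cells, stayed at or below 37.7 normalized counts in every library and were highest in different ones. Ifng, at chr10:118441046-118445892 on the plus strand, was highest in activated Tconvs, with 37.7, 28.5 and 26.2 normalized counts. Restimulated iTregs followed at 13.1, 19.1 and 18.2, above resting iTregs at 2.11, 3.03 and 10.6. All other groups, with 0 to 7.90, overlapped around the floor. Gm49751 shares 25.9% of the exon bases of Ifng.

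Il4, at chr11:53602982-53618669 on the minus strand, was highest in the 3 stimulated iTreg groups, which overlapped: restimulated iTregs held 27.2, 30.3 and 23.6 normalized counts, those with CM-4620 33.7, 31.7 and 27.2, and those with CsA 33.7, 35.9 and 28.0. Resting iTregs, at 8.43, 10.1 and 11.4, lay below all of these and above resting Tconvs, at 1.03, 7.5 and 6.14. Activated Tconvs held 3.59, 1.72 and 4.25, and tTregs 0 to 2.72. No Tconv or tTreg library reached 10 normalized counts, so that Il4 reached a test only through iTreg libraries. The Il4 libraries of activated Tconvs thus lay below those of every iTreg group, whereas for Ifng they lay above all others.

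Csf2, at chr11:54247271-54249667 on the minus strand, encodes GM-CSF, which acts on myeloid cells. It gave no read in resting Tconvs and resting tTregs, and 0, 0 and 1.42 normalized counts in activated Tconvs and 0, 0 and 1.82 in activated tTregs. Resting iTregs held 4.22, 3.03 and 0.759 and restimulated iTregs 13.1, 11.2 and 10.9, so that it reached a test only through the restimulated iTregs. With CM-4620 it held 5.10, 2.64 and 8.77 and with CsA 9.20, 7.18 and 8.0, below the restimulated libraries in both. Gm12223 on the other strand shares 12% of its exon bases.

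**Figure D2:**
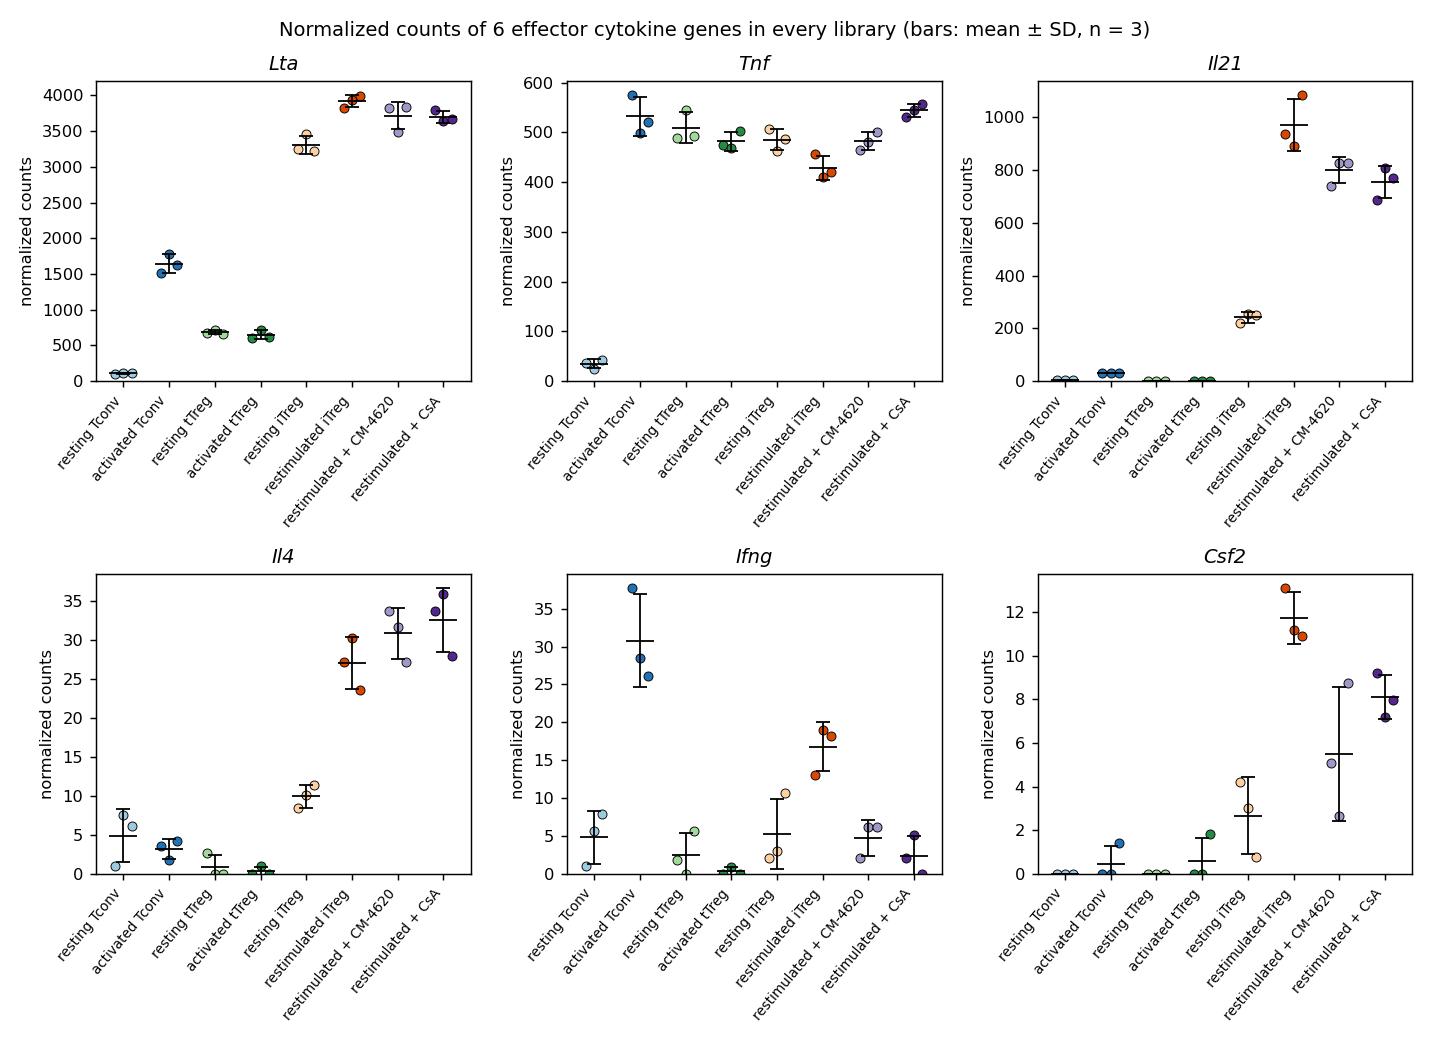
Normalized counts of Lta, Tnf, Il21, Il4, Ifng and Csf2 in the 24 libraries, on linear axes that start at 0; points are libraries, and bars are group means with SD (n = 3). Lta and Il21 are highest in the iTreg groups, Tnf is low in resting Tconvs alone, Ifng is highest in activated Tconvs, and Il4 and Csf2 are highest in stimulated iTregs.

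Il2, the growth factor that conventional T cells secrete on activation and Tregs consume, lies at chr3:37120523-37125959 on the minus strand, 96799 bases from Il21. It gave 95 reads in all libraries together. Resting Tconvs held 7, 4 and 6 reads, activated Tconvs 3, 4 and 5, resting tTregs 2, 3 and 1, and activated tTregs 4, 7 and 1. Resting iTregs held 3, 2 and 2 reads, restimulated iTregs 4, 4 and 5, those with CM-4620 3, 3 and 4, and those with CsA 5, 4 and 9. The normalized counts ranged from 1.14 to 7.20, 5 libraries were under 3 reads, and no group was apart from all the others, activated Tconvs included. Il2 failed the filter on low values and was tested only in an alternative without that filter, where it was called in 1 of 15 comparisons: it was lower in resting iTregs than in resting Tconvs (log2 difference -0.98 ± 0.37, limma adjusted p = 0.0276), whose libraries did not overlap. The values of both groups lie near the floor.

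The remaining 3 genes were at or near absence. Il3, a haematopoietic growth factor 15635 bases from Csf2 at chr11:54265303-54267277, gave 1 read in 1 library of resting iTregs. Il17f, at chr1:20777146-20790617, gave 4 reads spread over 3 libraries, at most 2 in any, and Il17a, at chr1:20730905-20734496, gave 0 reads in all 24 libraries. A count of 0 allows up to 3 reads per library, the floor given above, and covers counting error only. Il17a had no read to test, and Il3 and Il17f were tested only without the filter and passed in none of the comparisons there.

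**Figure D3:**
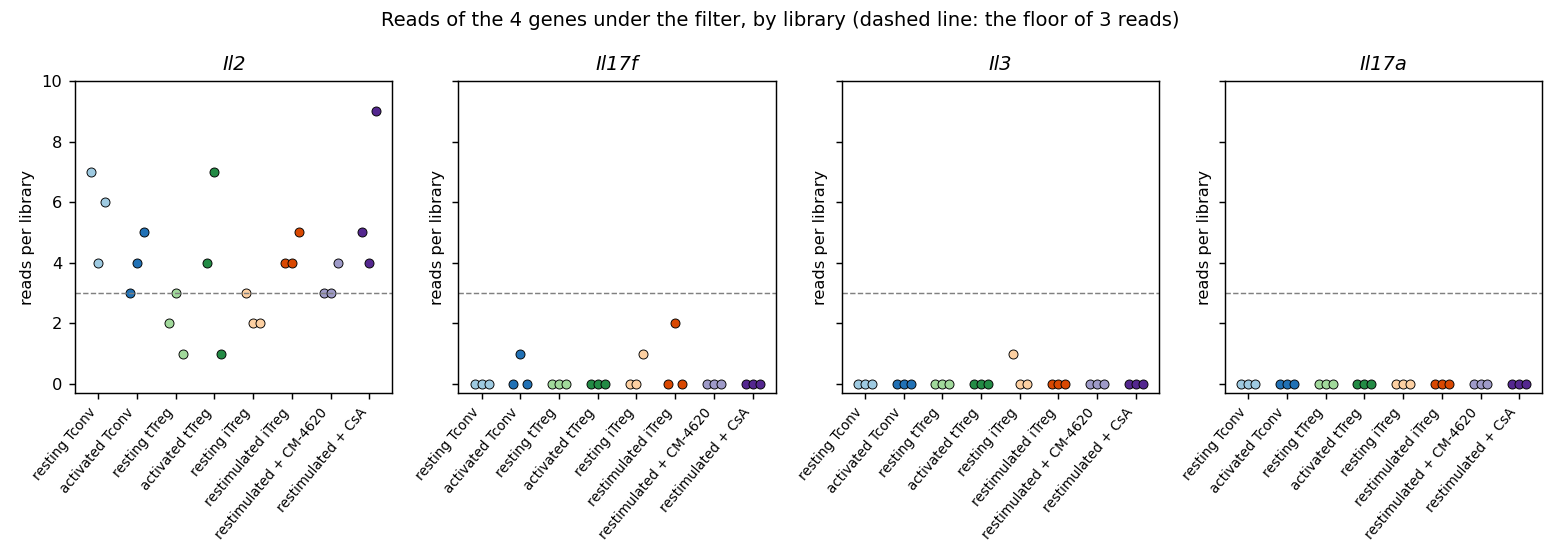
Reads per library of Il2, Il17f, Il3 and Il17a in the 8 groups; points are libraries and the dashed line is at 3 reads. Il2 is scattered around the line in every group with at most 9 reads, and the other 3 genes stay under it.

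Activation of Tconvs raised 4 of the 6 members tested. Lta rose 15.3-fold in its mean (108 ± 7.35 to 1645 ± 134, SD, n = 3), which in the limma fit of log2(normalized count + 1) was a log2 change of 3.92 ± 0.07 (SE) with an adjusted p of 1.54e-20. Tnf rose 15.1-fold, by 3.91 ± 0.12 (adjusted p = 6.66e-17). Il21 rose 6.56-fold, by 2.49 ± 0.14 (1.03e-12), and Ifng 6.34-fold, by 2.67 ± 0.71 (0.00233), although with a pseudocount of 0.1 the adjusted p of Ifng was 0.0618, the highest over 14 alternatives that otherwise reached down to 3.84e-05. Il4 (-0.30 ± 0.50, adjusted p = 0.615) did not pass the test, nor did Csf2, which was under the floor in both groups. A gene was called where the adjusted p was below 0.05 and the absolute log2 change above 0.5, and 24.8% of all 11725 genes tested rose by this rule. The median change of the 6 members was 2.58, beside -0.03 over all genes tested.

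The same comparison in tTregs called no member. Lta differed by -0.09 ± 0.07 (95% interval -0.25 to 0.06) and Tnf by -0.08 ± 0.12 (-0.33 to 0.18), with limma adjusted p-values of 0.35 and 0.647. Ifng averaged 2.5 ± 2.91 and 0.315 ± 0.546, under the floor in both groups (0.232). The intervals of Lta and Tnf thus excluded a change as large as that in Tconvs, and Il21 had no read before or after. At an unadjusted p below 0.05, 0 members passed in limma and 0 in edgeR, and edgeR and DESeq2 called 0, while 23.2% of all genes tested were called in one direction or the other. The median of the members was -0.08, beside 0 over all genes.

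The difference between the 2 responses was tested as an interaction. It was positive for Lta (4.01 ± 0.10, adjusted p = 2.17e-17), Tnf (3.99 ± 0.17, 8.65e-14), Ifng (3.76 ± 1.00, 0.00415) and Il21 (2.49 ± 0.19, 1.35e-09), 4 of the 6 members, against 18.1% of all genes tested. For Il21 the call rests on 6 tTreg libraries at 0, which carry no spread: on recovered reads the adjusted p was 1 in edgeR and 0.261 in DESeq2, over a range of 9.08e-10 to 1 in 20 alternatives. In levels after activation, tTregs lay below Tconvs for Lta (-1.35 ± 0.07, adjusted p = 1.69e-12), Ifng (-4.65 ± 0.71, 7.03e-06) and Il4 (-1.69 ± 0.50, 0.00542), and Il21 was at least 7.52-fold higher in Tconvs, against the mean floor of 3 reads per library. Tnf did not differ by the test (-0.14 ± 0.12, adjusted p = 0.326). The 4 members called lower stand beside 22.9% of all genes tested. The call for Il4 rests on 2 to 6 reads per library in activated Tconvs and 0 to 1 in activated tTregs. Its Tconv mean of 3.19 lay under the mean floor of the activated tTreg libraries, 4.11, so depth limits this call (DESeq2 adjusted p = 0.0498).

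**Figure D4:**
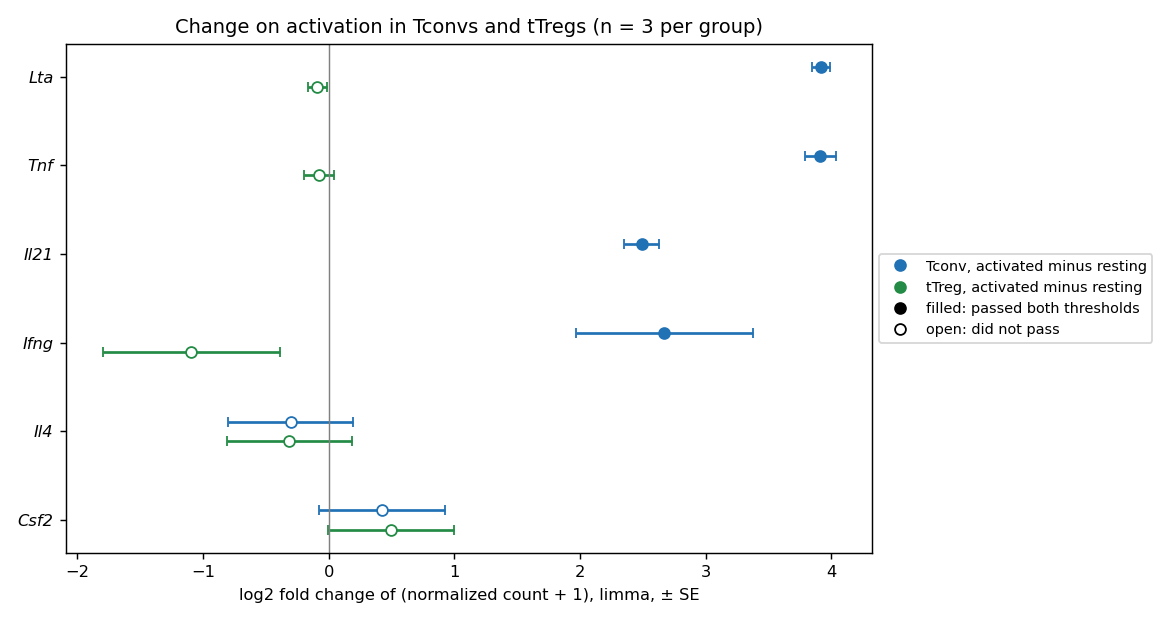
Change on activation of the 6 members tested, as log2(normalized count + 1), with SE, in Tconvs and in tTregs; filled symbols passed both thresholds. Lta, Tnf, Il21 and Ifng are filled in Tconvs and no symbol is filled in tTregs, where Il21 is not drawn because it had no read.

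Resting iTregs already held Il21 and Lta well above both other kinds of resting cells. Against resting Tconvs, Il21 was 51.3-fold higher (log2 5.42 ± 0.14, limma adjusted p = 6.83e-19), Lta 30.7-fold (4.93 ± 0.07, 8.96e-23) and Tnf 13.8-fold (3.78 ± 0.12, 3.67e-17), with no overlap between libraries. Csf2 passed the test as well (0.00361), but no fold is given, since its mean in resting iTregs rested on 4, 3 and 1 reads and lay under the floor. Il4 was higher by 1.13 ± 0.50 (0.0447). The call for Il4 was lost in 10 of its 14 alternatives, over which the adjusted p ran from 0.0146 to 0.358; without replicate 1 of resting Tconvs it was 0.358, and without any one resting iTreg library it was 0.0571 to 0.106. Ifng did not differ by the test (0.09). Of all genes tested, 34% were higher in resting iTregs, and 5 of the 6 members were. Csf2 and Il4 had entered the test only through iTreg libraries, so their calls add no support to this count. The median of the 6 members was 2.76, beside 0.04 over all genes, and as it includes Csf2 and Il4 it adds no support either.

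Against resting tTregs, Il21, Lta and Il4 were again higher and Tnf was not. Il21 was at least 72.3-fold higher in resting iTregs, against the mean floor of the tTreg libraries, Lta was 4.81-fold higher (2.27 ± 0.07, adjusted p = 7.65e-17), and Il4 was higher by 2.81 ± 0.50 (2.93e-05). Csf2 passed the test (0.00359) with the same few reads. Tnf differed by -0.07 ± 0.12 (0.618). Ifng, at 0.98 (0.211 in limma), passed only without replicate 3 of resting tTregs, the highest of its group (1.65, adjusted p = 0.0489; range over 14 alternatives 0.0489 to 0.741). The 4 members higher in iTregs compare with 33.3% of all genes tested. Of these, Csf2 and Il4 had entered the test only through iTreg libraries, so their calls add no support.

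Restimulation of iTregs raised Il21 4.02-fold, from 242 ± 19.5 to 971 ± 99.9 (2.00 ± 0.14, limma adjusted p = 2.23e-09). Csf2 rose as well, from 2.67 ± 1.76 to 11.7 ± 1.19 (1.93 ± 0.50, limma adjusted p = 0.00888). Its resting mean lay under the floor, so no fold is given. Csf2 had entered the test through these very libraries, so its call adds no support to the count of 2 of 6, beside 5.02% of all genes tested that rose. Its call was also lost without replicate 3 of resting iTregs (1.47, adjusted p = 0.0658) and with a pseudocount of 0.1 (0.174), over a range of 0.000541 to 0.174 in 14 alternatives.

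Lta was at 3919 ± 87.2 against 3310 ± 126, with no overlap between libraries and an adjusted p of 0.0242, but a log2 change of 0.24 ± 0.07, under the threshold of size. Il4 differed by 1.36 ± 0.50 with an adjusted p of 0.0615 in limma, while the count models called it (0.00736 in edgeR and 0.00657 in DESeq2; range over 14 alternatives 0.00171 to 0.396), and its libraries did not overlap. Ifng differed by 1.74 ± 0.71 (0.0929), and without replicate 3 of resting iTregs, the highest of its group, by 2.31 (0.0465; range 0.0168 to 0.379). Tnf was at -0.18 ± 0.12 (0.356). The median of the 6 members was 1.55, beside -0.01 over all genes. Csf2 and Il4, which had entered the test only through iTreg libraries, are in this median, so it adds no support.

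CM-4620 and CsA, which block the calcium channel and the phosphatase of the same route and differ in structure as a small synthetic molecule and a cyclic peptide, were each set against the same 3 restimulated libraries, so these differences are not independent. With CM-4620, 0 members were called in limma, edgeR or DESeq2, against 1.98% of all genes tested in either direction, and 2 passed an unadjusted p below 0.05 in limma and 3 in edgeR. DESeq2 gave no adjusted p for Csf2 here. Il21 differed by -0.28 ± 0.14 (95% interval -0.56 to 0.01, adjusted p = 0.382), from 971 ± 99.9 to 799 ± 49.8 normalized counts. Ifng differed by -1.71 (-3.18 to -0.24, adjusted p = 0.248) and Csf2 by -1.08 (-2.12 to -0.04, 0.329), intervals of single genes that exclude 0 before the adjustment. Il4 differed by 0.19 (-0.85 to 1.22), Tnf by 0.17 (-0.08 to 0.42) and Lta by -0.08.

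With CsA, Ifng was lower, at 2.39 ± 2.58 against 16.8 ± 3.21 normalized counts (-2.73 ± 0.71, 95% interval -4.20 to -1.26, limma adjusted p = 0.0368), 1 of 6 members beside 0.64% of all genes tested that fell. The call depended on single libraries: it was lost without CsA replicate 1 (0.0865) or 3 (0.2), without restimulated replicate 1 (0.0794), 2 (0.128) or 3 (0.114), and with a pseudocount of 0.1 (0.141), and held in edgeR (0.0231) and DESeq2 (0.011), the range over 14 alternatives being 0.0081 to 0.2. Natural killer cell markers summed to 189–233 with CsA and to 106–150 in restimulated iTregs, and their part in the result was not tested. Il21 differed by -0.36 ± 0.14 (-0.65 to -0.07, adjusted p = 0.19), Tnf by 0.34 ± 0.12 (0.09 to 0.60, 0.146), changes whose adjusted p was below the threshold in the count models (Il21 0.0355 in edgeR and 0.0356 in DESeq2, Tnf 0.0402 and 0.00953) but whose size was under 0.5 there too. Csf2 differed by -0.48 (-1.52 to 0.56), Il4 by 0.26 and Lta by -0.08 (-0.24 to 0.07).

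Between the 2 inhibitors 6 differences were tested and 0 were called in limma, edgeR or DESeq2, beside 0.0853% of all genes tested, and 0 passed an unadjusted p below 0.05 in limma or edgeR. DESeq2 gave no adjusted p for Ifng and Csf2 here. CM-4620 minus CsA was 0.08 for Il21 (95% interval -0.20 to 0.37), 0.00 for Lta (-0.15 to 0.16), -0.17 for Tnf (-0.43 to 0.08), 1.02 for Ifng (-0.45 to 2.49) and -0.60 for Csf2 (-1.64 to 0.44). The intervals of Il21 and Lta were narrow, whereas those of Ifng and Csf2 left room for differences larger than 1.

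Against resting iTregs, a comparison added after the values were seen, Il21 was still higher with either inhibitor: 3.31-fold with CM-4620 (1.72 ± 0.14, limma adjusted p = 6.3e-08) and 3.13-fold with CsA (1.64 ± 0.14, 7.8e-08), against 4.02-fold in restimulated iTregs. Of the rise of Il21 in normalized counts, 76.5 ± 6.83% (SD over 3 libraries) was left with CM-4620 and 70.4 ± 8.49% with CsA. The SD covers the inhibitor libraries only. Il4 averaged 30.9 ± 3.31 with CM-4620 and 32.5 ± 4.10 with CsA, beside 9.97 ± 1.48 in resting iTregs, without overlap. Ifng averaged 4.78 ± 2.37 and 2.39 ± 2.58, beside 5.25 ± 4.67 in resting iTregs, and these libraries overlapped. Il21 was the 1 member called with CM-4620, beside 2.7% of all genes tested that were higher.

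With CsA, Il21 and Il4 were called, beside 3.58%. Il4 had entered the test through iTreg libraries, those with CsA among them, so its call adds no support. The adjusted p of Il4 was 0.0334 with CsA and was lost without any one of the 6 libraries (0.0652 to 0.0989), and with CM-4620 it was 0.0534. Both count models called Il4 with either inhibitor (edgeR 0.00399 with CM-4620 and 0.0021 with CsA, DESeq2 0.00233 and 0.000922), and the ranges over 14 alternatives were 0.000982 to 0.399 and 0.000443 to 0.323.

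**Figure D5:**
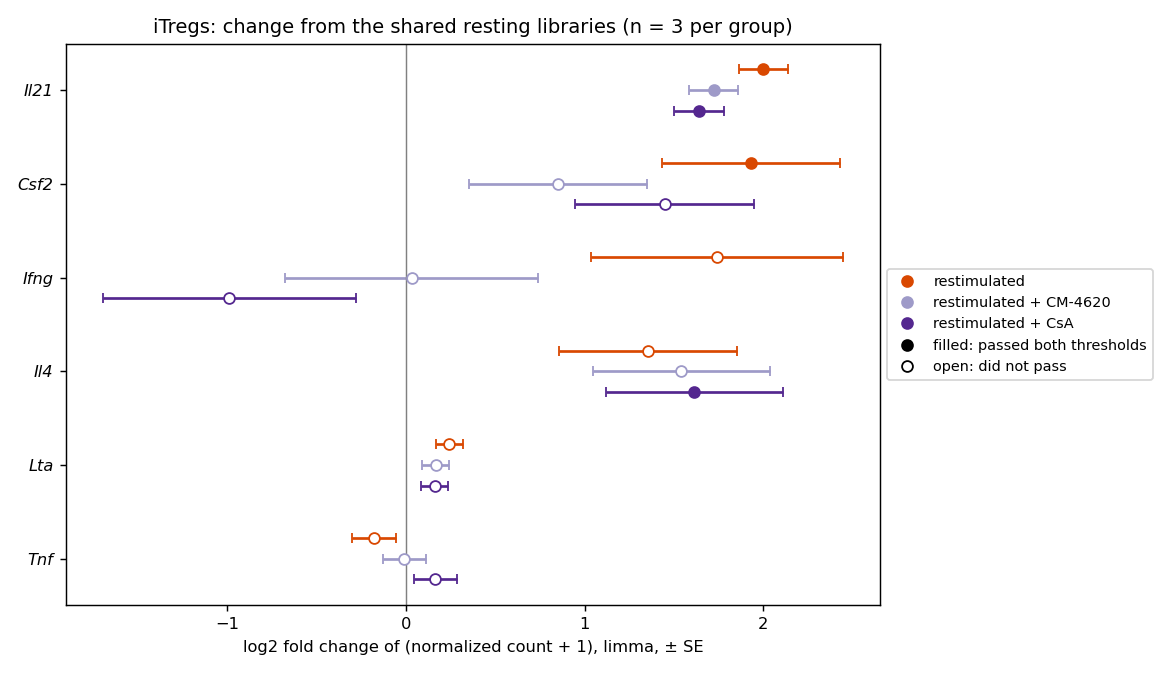
Change of the 6 members from resting iTregs, as log2(normalized count + 1) with SE, in restimulated iTregs and in those restimulated with CM-4620 or CsA; all 3 use the same resting libraries, and filled symbols passed both thresholds. Il21 is filled in all 3 groups. Ifng is open with either inhibitor, near 0 with CM-4620 (0.03 ± 0.71) and at -0.99 ± 0.71 with CsA.

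Stimulated iTregs and stimulated Tconvs differed in the amount of some of the cytokine transcripts. Restimulated iTregs held 31.4-fold more Il21 than activated Tconvs (4.93 ± 0.14, limma adjusted p = 1.68e-17), 8.48-fold more Il4 (2.79 ± 0.50, 5.46e-05) and 2.38-fold more Lta (1.25 ± 0.07, 4e-12), and Csf2 was higher by 3.24 ± 0.50 (9.5e-06). Ifng was at -0.84 ± 0.71 (0.318), although its libraries did not overlap, and a fit of only these groups gave 0.0151 (range over 14 alternatives 0.0151 to 0.612). Tnf was lower by 0.31 on the log2 scale, -0.31 ± 0.12 (0.0335), under the threshold of size. Csf2 had entered the test through the restimulated libraries and Il4 only through iTreg libraries, so their calls add no support. Among the other members tested, Il21 and Lta were higher in iTregs, beside 24.4% of all genes tested.

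Restimulated iTregs exceeded activated tTregs in Il21, Lta and Ifng, beside 30.5% of all genes tested. They also exceeded them in Csf2 and Il4, but both had entered the test only through iTreg libraries, so their calls add no support. Il21 was at least 236-fold higher, Lta 6.06-fold (2.60 ± 0.07), Il4 by 4.48 ± 0.50 (adjusted p = 5.81e-08), Ifng by 3.81 ± 0.71 (5.76e-05) and Csf2 by 3.17 ± 0.50 (8.12e-06). Tnf again did not differ by the test (-0.17, adjusted p = 0.218). Csf2 in restimulated iTregs was at least 4.13-fold above resting Tconvs and at least 3.51-fold above resting tTregs, both at 0. The log2 differences against groups with 0 or 1 reads of a gene depend on the pseudocount and are no bounds.

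Resting iTregs against activated Tconvs, also added after the values were seen, called Il21 (2.92), Lta (1.01), Il4 (1.43, adjusted p = 0.0173) and, under the floor in both groups, Csf2 (adjusted p = 0.029) as higher and Ifng as lower (-2.58, 0.00354), beside 42.6% of all genes tested in either direction. Tnf was at -0.13. The calls for Il4 and Csf2 add no support, since both genes had entered the test only through iTreg libraries. The call for Csf2 was lost in 8 of 14 alternatives: edgeR (0.107), DESeq2 (0.128), only the groups compared (0.0731), a pseudocount of 5 (0.0682) and without any of 4 libraries (replicates 1 and 2 of either group, 0.0894 to 0.138), over a range of 0.00677 to 0.138. That for Il4 was lost without replicate 2 of activated Tconvs (0.0833) or replicate 3 of resting iTregs (0.051), over a range of 0.0028 to 0.166, and that for Ifng with a pseudocount of 0.1 (0.0833; range 6.04e-05 to 0.0833).

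Levels of different members can be set side by side only per length of exon. Per kilobase of exon, restimulated iTregs held 2834 ± 63.0 normalized counts of Lta, 262 ± 14.9 of Tnf, 185 ± 19.0 of Il21, 22.0 ± 2.71 of Il4, 14.7 ± 1.49 of Csf2, 12.9 ± 2.48 of Ifng and 3.80 ± 0.245 of Il2. Activated Tconvs held 1190 ± 97.2 of Lta, 324 ± 24.1 of Tnf, 23.8 ± 4.72 of Ifng, 5.87 ± 0.22 of Il21 and 2.60 ± 1.07 of Il4. Lta led in both, while Ifng stood above Il21 in activated Tconvs and below it in restimulated iTregs.

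Lta and Tnf, neighbours on one strand, did not keep one ratio. Lta per kilobase was 3.82 ± 1.14 times Tnf in resting Tconvs and 3.69 ± 0.56 times in activated ones, 1.60 ± 0.0436 and 1.59 ± 0.198 times in resting and activated tTregs, and 8.10 ± 0.65 times in resting iTregs. Within a cell type, the resting and activated means were close in Tconvs and tTregs, while in iTregs it was 10.9 ± 0.807 after restimulation alone, 9.14 ± 0.578 with CM-4620 and 8.07 ± 0.348 with CsA. These ratios were not tested.

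A fixed list of 40 other cytokine, chemokine and death ligand genes of T cells, of which 28 were tested, moved in the same comparisons. On Tconv activation 17 rose and 6 fell, on tTreg activation 5 and 4, and on iTreg restimulation 10 and 2, where 50.3%, 23.2% and 10.4% of all genes tested were called in either direction. Lif, an IL-6 family cytokine, rose from 0.625 ± 1.08 to 97.8 ± 8.04 normalized counts in Tconvs (6.12 ± 0.25, limma adjusted p = 5.53e-15). Ccl4, an inflammatory chemokine, rose from 1.62 ± 1.46 to 63.3 ± 10.8 in Tconvs (4.81) and passed in tTregs at 1.98 ± 1.45 against 0, under the floor. Penk, the enkephalin precursor, rose both in Tconvs (3.89) and in tTregs (1.69). In restimulated iTregs the largest rises were Il9, a mast cell growth factor, from 2.92 ± 1.35 to 33.0 ± 5.08 (3.17, adjusted p = 4.02e-07), Il10, an anti-inflammatory cytokine, from 32.6 ± 3.81 to 158 ± 25.1 (2.23, 0.000652), and Il24, from 618 ± 49.0 to 2835 ± 205 (2.20, 0.000336).

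Of the same 28 genes, 3 fell with CM-4620, and 2 fell and 1 rose with CsA, beside 1.98% and 1.59% of all genes tested. Fasl, which encodes a ligand that triggers cell death, fell from 164 ± 11.2 to 60.9 ± 4.21 with CM-4620 (-1.42, adjusted p = 0.0158) and to 71.9 ± 15.0 with CsA (-1.19, 0.0477). Ccl3, an inflammatory chemokine, fell by 1.99 and by 1.82 on the log2 scale (0.0151 and 0.0297), and Tnfsf10, the death ligand TRAIL, fell by 0.57 with CM-4620 (0.0134). Fgl2, a secreted Treg product, was higher with CsA (156 ± 51.7 against 33.5 ± 15.4, adjusted p = 0.004).

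Of 12 tested receptors of the members, 7 rose and 3 fell on Tconv activation, where 50.3% of all genes tested were called in either direction. Il2ra, the high-affinity chain of the IL-2 receptor, rose from 39.7 ± 2.10 to 4351 ± 84.2 (6.74, limma adjusted p = 6.26e-24), whereas Il2 itself gave only 3 to 5 reads in these libraries, and Il2rb rose by 2.99. Ifngr1, a chain of the interferon-γ receptor, fell in Tconvs (-2.83) and in tTregs (-0.71). In restimulated iTregs Il21r rose with its ligand (2404 ± 52.7 against 1666 ± 232, 0.54, adjusted p = 0.000838) and Tnfrsf1a fell by 0.53 (0.0377). In tTregs 2 rose and 1 fell, beside 23.2% of all genes tested.

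Among 39 tested transcription factors that control helper cytokine genes, 18 rose and 15 fell in activated Tconvs, beside the same 50.3% of all genes tested, led by Irf4 (33.4 ± 4.48 to 4309 ± 173, 6.98), Irf8 (6.95) and Eomes (4.70), a T-box factor of interferon-γ-producing cells. In tTregs 9 rose and 4 fell, beside 23.2% of all genes tested. Irf8 (1.36) was among those that rose, and Bcl6 (-1.58) and the AP-1 member Fosl2 (-1.36) among those that fell. On restimulation of iTregs 11 rose and 2 fell, beside 10.4%. The AP-1 member Fos fell from 47.4 ± 3.76 to 17.4 ± 2.07 (-1.40, adjusted p = 0.00398). With CM-4620 Fosl2 (-0.94) and Ikzf3 (-0.57) were lower, beside 1.98% of all genes tested called in either direction. With CsA 4 were lower, beside 1.59%, among them Ikzf3 (-0.76), Irf4 (-0.57, adjusted p = 0.0185) and Egr2 (-1.21, 0.047).

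Of 15 neighbours on the chromosome, 11 were tested: 3 rose and 3 fell on Tconv activation, 3 and 1 on tTreg activation, and 2 and 2 on iTreg restimulation. The 6 of 11 called in Tconvs were near the 50.3% of all genes tested, and the shares over all genes were 23.2% in tTregs and 10.4% in iTregs. Il13 and Il5, the Th2 cytokines beside Il4, stayed low, with highest group means of 6.57 ± 2.55 in restimulated iTregs with CsA and 10.2 ± 4.65 in activated Tconvs. Kif3a and Rad50, genes of the same locus that encode no cytokine, rose in restimulated iTregs by 0.94 and 0.56. Acsl6, near Il3 and Csf2, fell from 17.1 ± 4.8 to 5.94 ± 3.70 (-1.53, limma adjusted p = 0.03). Ltb, the partner of Lta beside Tnf, averaged 3409 ± 994 to 9659 ± 1777 over the groups and varied widely between libraries, from 606 to 11497 in resting tTregs.

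Over the 8 group means, which share their libraries with every comparison above, the genes whose pattern lay nearest to each member by Pearson correlation were Polr1d (0.995) and Tns4 (0.994) for Il21, Sema7a (0.998) and Msto1 (0.994) for Lta, Cish (0.994) and D630039A03Rik (0.993) for Tnf, Sestd1 (0.993) for Il4, Ccdc63 (0.994) for Csf2, and Copb1 (0.930) for Ifng. Among the members, Il21 was nearest to Il4 (0.970) and Csf2 (0.904), Tnf to Lta (0.797), and Ifng and Tnf were almost unrelated (0.0187). These are descriptions over 8 points.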

How the data were processed

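The authors trimmed the SMART-seq2 reads with cutadapt, aligned them with STAR 2.5.3 and quantified genes with RSEM 1.3.0. They deposited a normalized signal, here called normalized counts: reads on each gene over a size factor of its library (median of ratios, 24 libraries). Each column was a set of whole multiples of its lowest nonzero value within 1e-06, which gave back the reads, and these were used for depth, for genes near the floor and for count models. Replicates differed by 2.69 to 36.4 times the variance of counting alone.

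A gene was tested where 3 or more libraries reached 10 normalized counts (11725 of 21950). Values were taken as log2 after adding 1 and fitted with limma 3.58.1 in R 4.3.3, with a trend, all 24 libraries and 8 groups in one fit. Adjusted p-values are Benjamini-Hochberg values over all genes tested, and the thresholds (adjusted p 0.05, log2 change of 0.5 in size) are those of the study's methods, which used DESeq2. Where a value is called adjusted p with no tool named, it is from this limma fit. The code was tested on simulated data.

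The members, lists and tests were chosen with earlier results of these data known, and 3 comparisons (either inhibitor or activated Tconvs against resting iTregs) were added after the values were seen. Named genes of a list are at most 3 per comparison, those of largest absolute change among the genes called; Il5, Il13 and Ltb were named outside this rule, after their values were seen. Only some of the genes the rule gives are printed, and 2 are not reported here. Alternatives were TMM scaling, levels rescaled by total reads, pseudocounts of 0.1 and 5, no filter, a block for replicate number, a fit of the compared groups alone, each library left out, the adjusted p alone, a log2 change above 1, and, on recovered reads, edgeR 4.0.16 (quasi-likelihood) and DESeq2 1.42.0. Positions and exon lengths are from a GENCODE annotation of GRCm38 older than the study's, and start regions and their sequences from RefSeq. Chromatin data were not analysed here.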

Additional observations from a re-analysis of the deposited data

Results flagged for a closer look

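The activation response differed between Tconvs and tTregs, by the interaction in the limma fit, for 4 members: Lta (4.01), Tnf (3.99), Ifng (3.76) and Il21 (2.49), each as the log2 change in Tconvs minus that in tTregs. In Tconvs all 3 activated libraries were above all 3 resting ones for each of the 4 genes. In tTregs the resting and activated libraries of Lta and Tnf overlapped in normalized counts, and those of Il21 were all at 0. The value for Il21 was not called in edgeR or DESeq2. Groups of 3 libraries were not searched for single libraries that stand apart.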

How the results depend on the processing

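The log2 changes of single members kept direction and call in 1189 alternative fits, lost the call in 41, gained it in 16 and changed sign in 36, and no sign changed in a called value. Csf2, Ifng, Il4 and Il2 lie near the floor of 3 reads, where depth limits every comparison. Of the group levels rescaled by total reads, 38 stayed the same and 10 moved, Lta and Tnf in both tTreg groups among them.

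A log2 change above 1 left 3126 genes called on Tconv activation, 842 on tTreg activation, 2159 in the interaction, 461 on restimulation, 82 with CM-4620, 62 with CsA and 4 between the inhibitors. It left 4959 and 4912 for resting iTregs against resting Tconvs and tTregs, 2873 and 4243 for restimulated iTregs against activated Tconvs and tTregs, 2880 for activated tTregs against Tconvs, 201 and 265 for CM-4620 and CsA against resting iTregs, and 2716 for resting iTregs against activated Tconvs. The adjusted p alone gave 4677 on tTreg activation, 2225 on restimulation, 409 with CM-4620, 374 with CsA, and 1136 and 1618 for these against resting iTregs. With only the groups compared there were 1400 on tTreg activation and 22 between the inhibitors, where a pseudocount of 5 gave 19, edgeR 26 and DESeq2 36. With each library left out in turn, 145 to 181 genes were called with CM-4620, 117 to 147 with CsA and 6 to 8 between them.

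Of the 6 members, 1 was called on restimulation with a pseudocount of 0.1 and 4 with one of 5 or with only the groups compared. With CsA against restimulated iTregs 0 were called with a pseudocount of 0.1 or only the groups compared, and 0 to 1 with a library left out. With CM-4620 against resting iTregs 2 were called with a pseudocount of 5, only the groups compared, edgeR or DESeq2. With CsA against resting iTregs 1 was called with a pseudocount of 0.1 and 1 to 2 with a library left out. For resting iTregs against activated Tconvs 3 were called with a pseudocount of 0.1 and 3 to 5 with a library left out.

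Signs changed only in uncalled values. With a library left out, Il4 ran from -0.95 to 0.0835 on Tconv activation, from -0.63 to 0.32 on tTreg activation, from -0.64 to 0.40 in the interaction and from -0.17 to 0.0124 between the inhibitors. Csf2 ran from -0.50 to 0.42 in the interaction and from -0.42 to 0.50 in activated tTregs against Tconvs, Ifng from -0.55 to 0.52 in resting iTregs against Tconvs and from -0.35 to 0.60 with CM-4620 against resting iTregs, Lta from -0.0183 to 0.0482 between the inhibitors, and Tnf from -0.0414 to 0.0223 with CM-4620 against resting iTregs. Csf2 in the interaction was 0.32 in edgeR and 0.38 in DESeq2, and in activated tTregs against Tconvs -0.32 and -0.16. Il4 in the interaction was -0.0921 with a pseudocount of 5. Ifng with CM-4620 against resting iTregs was -0.00858 with a pseudocount of 5, -0.22 in edgeR and -0.18 in DESeq2. The cause was not tested.

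Replicate numbers are shared between groups, but no source ties same-numbered libraries, and not every pair correlated above 0.1: over 84 same-numbered pairs the deviations from the group means correlated at 0.0345 on average, 23 above 0.1, against -0.0173 for other numbers. Among the iTreg groups the 18 pairs averaged 0.107, 8 above 0.1, against -0.0536, and 15 of 24 libraries correlated best with their own number, which is a hint of pairing from the data and not from the design. With the number as a block, 5926 genes were called on Tconv activation, 2730 on tTreg activation, 1214 on restimulation, 226 with CM-4620, 179 with CsA and 10 between the inhibitors. Among the members the block changed 1 call, Il4 in resting iTregs against resting Tconvs (adjusted p = 0.0558, so 4 members called there).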
